A study of Mus musculus with 2 samples.

Results

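The 10 genes described here mark the thymus, where T cells are made, and were read in RNA of whole mouse lung. Of these, 4 belong to thymus epithelium (Foxn1, Psmb11, Pax1 and Pax9) and 6 to immature T cells, the thymocytes (Rag1, Rag2, Ptcra, Cd3e, Cd3g and Lck). They were taken by symbol through their NCBI gene numbers from tables of 41709 genes, and all 10 were found. They were selected on their read counts, because thymus genes were higher in the Prmt5 knockdown library, so their ratios are a description and not a test. The groups were 1 library labelled Prmt5 knockdown, whose title names both Shh and Prmt5, and 1 control library labelled wild type in the series design. Both came from C57BL/6 embryos at E14.5 and each from a pool of 7 lungs. The labels do not say how Shh or Prmt5 was altered or in which cells, and name no tissue other than lung. With 1 library per group no spread between pools is known, no p-value can be given, and every interval below covers counting error only.

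Thymus epithelium arises from the third pharyngeal pouch and comes under control of the transcription factor FOXN1, without which mice have no functional thymus. Its cells attract blood progenitors and present Notch ligand and interleukin 7 to them. The progenitors then switch on the RAG recombinase, cut and join the T cell receptor beta, gamma and delta genes, and display the beta chain with the pre-T alpha chain and the CD3 subunits, a complex that signals through the kinase LCK. In the mouse embryo the thymus lies in the upper chest above the heart.

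The 250 bases before a transcript start in the RefSeq promoter table are shown for 6 of the genes, all 3 that had no control reads (Pax1, Ptcra and Cd3g) and 3 that define their cell type (Foxn1, Psmb11 and Rag1). For Pax1 and Foxn1 that start lies inside the gene span given below, so their windows lie partly or wholly within the gene. The sequences are those of GRCm38.p6, written 5′ to 3′ on the strand of the gene. Capitals mark matches on either strand to 5 short motifs, the FOXN1 core GACGC, the E-boxes CAGCTG and CAGGTG, the RUNX motif TGTGGT and the TCF and LEF motif CTTTGA.
Foxn1, chr11:78386609-78386858, minus strand: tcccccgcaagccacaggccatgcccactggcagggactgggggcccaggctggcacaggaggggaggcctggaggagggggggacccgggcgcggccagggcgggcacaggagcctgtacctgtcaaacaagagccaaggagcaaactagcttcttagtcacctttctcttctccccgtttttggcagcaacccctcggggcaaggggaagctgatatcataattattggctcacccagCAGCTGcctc
Psmb11, chr14:54625060-54625309, plus strand: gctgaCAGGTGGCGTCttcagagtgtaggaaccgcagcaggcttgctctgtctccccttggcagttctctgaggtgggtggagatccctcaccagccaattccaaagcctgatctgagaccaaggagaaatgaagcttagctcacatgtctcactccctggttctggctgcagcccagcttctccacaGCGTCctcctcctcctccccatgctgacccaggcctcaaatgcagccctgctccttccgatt
Pax1, chr2:147364744-147364993, plus strand: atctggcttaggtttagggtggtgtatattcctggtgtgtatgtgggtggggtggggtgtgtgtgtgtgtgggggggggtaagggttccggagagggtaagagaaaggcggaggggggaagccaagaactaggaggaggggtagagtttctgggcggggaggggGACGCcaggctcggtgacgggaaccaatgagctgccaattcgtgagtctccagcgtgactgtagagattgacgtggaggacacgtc
Rag1, chr2:101649533-101649782, minus strand: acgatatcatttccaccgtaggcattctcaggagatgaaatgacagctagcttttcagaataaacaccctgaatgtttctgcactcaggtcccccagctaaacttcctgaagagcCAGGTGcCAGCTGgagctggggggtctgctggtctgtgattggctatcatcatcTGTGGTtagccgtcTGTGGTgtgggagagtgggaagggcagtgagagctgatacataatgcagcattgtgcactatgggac
Ptcra, chr17:46763713-46763962, minus strand: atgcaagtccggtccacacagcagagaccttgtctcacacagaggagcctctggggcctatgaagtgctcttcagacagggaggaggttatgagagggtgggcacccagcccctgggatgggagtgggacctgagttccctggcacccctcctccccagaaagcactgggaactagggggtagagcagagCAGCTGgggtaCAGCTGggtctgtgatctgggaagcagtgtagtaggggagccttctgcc
Cd3g, chr9:44980432-44980681, minus strand: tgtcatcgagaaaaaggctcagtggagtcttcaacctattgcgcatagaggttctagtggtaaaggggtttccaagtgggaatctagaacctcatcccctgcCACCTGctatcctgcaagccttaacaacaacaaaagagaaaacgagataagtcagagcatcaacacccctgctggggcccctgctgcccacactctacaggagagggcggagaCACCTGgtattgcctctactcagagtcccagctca

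The Rag1 window held a CAGGTG and a CAGCTG box, 135 and 128 bases before the start, and a pair of RUNX motifs at 81 and 67 bases. Ptcra held CAGCTG at 60 and 49 bases, and Cd3g held CAGGTG, read on the other strand, at 148 and 35 bases. The FOXN1 core was found in the Psmb11 window at 239 and 62 bases and in the Pax1 window at 86 bases, and the first Psmb11 match directly follows a CAGGTG box without sharing bases with it. Over the 11 windows of the 10 genes, Lck having 2 starts, 2 genes held the FOXN1 core, 3 CAGCTG, 4 CAGGTG, 2 the RUNX motif and none CTTTGA. Of all 32851 windows of the same length, 23%, 13%, 17%, 14% and 13.8% held these motifs in the same order. The letters were thus common, and a match describes the window only. The windows of Pax9, Rag2 and Cd3e held none of the 5.

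The knockdown library held 25829281 counted reads and the control library 22581490, so that 3 reads, the limit that a count of 0 allows, stood for 1.16e-05% and 1.33e-05% of reads. A gene was called higher or lower when at least 1 library had 50 reads, the scaled ratio of knockdown over control was at least 1.5 either way and its 95% counting interval excluded 1. Of the 14569 genes with 50 reads, 20.7% were called higher and 12.3% lower, and the median log2 ratio was -0.01. Prmt5 had 2127 reads in the knockdown and 2704 in the control library (log2 ratio -0.43, interval -0.51 to -0.35, not past the ratio of 1.5), and Shh 109 and 1124 reads (log2 ratio -3.44). Defining markers of lung epithelium were present in both libraries and lower in the knockdown library, with Nkx2-1 at 895 and 7550 reads and the surfactant gene Sftpc at 1313 and 8880.

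Of the 4 epithelial genes, Foxn1, Psmb11 and Pax1 were read in the knockdown library and had at most 4 reads in the control library, while Pax9 had 23. Foxn1 (NCBI gene 15218, chromosome 11, 78357577 to 78386783 in RefSeq GRCm38.p6, as for the genes below), the master regulator of thymus epithelium, had 62 reads in the knockdown and 2 in the control library, a log2 ratio of 4.57 (2.96 to 7.95). Psmb11 (73902, chromosome 14, 54625310 to 54629556), a proteasome subunit made by cortical thymus epithelium that shapes the peptides shown to thymocytes, had 152 and 4 reads (log2 ratio 5.0, 3.78 to 7.06). Both genes were thus read in each library, at a handful of reads in the control.

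Pax1 (18503, chromosome 2, 147361930 to 147375049), a paired box factor of the pharyngeal pouches and of the sclerotome, the part of the somite that forms vertebrae, had 281 reads in the knockdown library and 0 in the control library. Against a floor of 3 control reads this is at least 88.4-fold higher, a bound that leaves out counting error in the knockdown reads. Its 95% counting interval began at 71.4-fold. Its relative Pax9 (18511, chromosome 12, 56691693 to 56712824), which is needed for the thymus and also works in the oesophagus, teeth and palate of the mouse, had 76 and 23 reads, a log2 ratio of 1.62 (0.95 to 2.38). The interval of Pax9 lay below those of Foxn1 and Psmb11, and Pax9 was the epithelial gene with the most control reads.

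**Figure D1:**
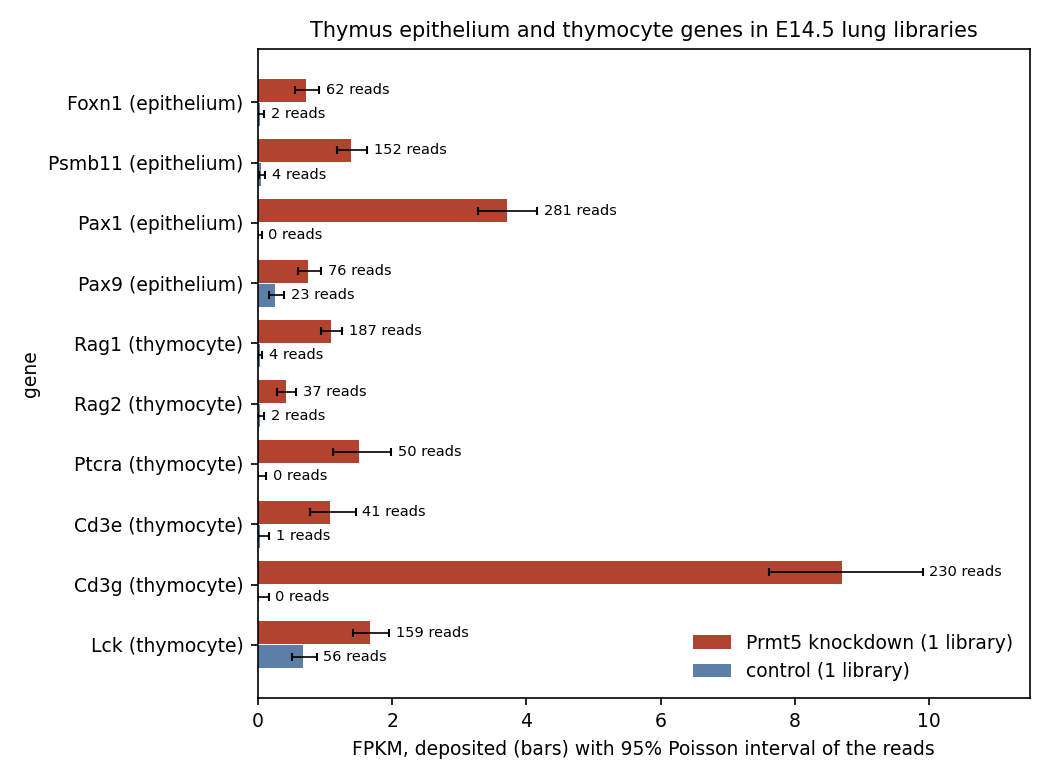
Deposited FPKM (reads scaled to gene length and library total, x axis) of the 10 genes in the Prmt5 knockdown library (upper bar of each pair) and the control library (lower bar), with the exact 95% Poisson interval of the reads and the read count beside each bar. Every knockdown bar is longer than its control bar, Cd3g reaches 8.70 FPKM, and Pax9 and Lck have clearly visible control bars.

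The 6 thymocyte genes were chosen in the same way, and 5 of them had at most 4 control reads. Rag1 (19373, chromosome 2, 101638252 to 101649532) and Rag2 (19374, chromosome 2, 101624712 to 101632528) encode both parts of the recombinase that cuts antigen receptor genes and lie side by side. Rag1 had 187 reads in the knockdown and 4 in the control library (log2 ratio 5.30, 4.08 to 7.35). Rag2 had 37 and 2 reads (log2 ratio 3.83, 2.17 to 7.22) and did not reach the minimum of 50, so it was not called. The pair was low in the control library, with 6 reads in all.

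Ptcra (19208, chromosome 17, 46755663 to 46763712), the pre-T alpha chain that pairs with a new beta chain, had 50 reads in the knockdown library and 0 in the control library, at least 15.7-fold higher on the same floor, with an interval from 12.3-fold. It reached the minimum of reads exactly. Cd3g (12502, chromosome 9, 44969572 to 44980431), a signalling subunit of the receptor complex, had 230 and 0 reads, at least 72.3-fold higher on that floor, with an interval from 58.3-fold. Its neighbour Cd3e (12501, chromosome 9, 44998735 to 45009663), another CD3 subunit, had 41 and 1 reads (log2 ratio 4.72, 2.71 to 10.61) and was not called for want of reads. Both CD3 genes were thus essentially without control reads.

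Lck (16818, chromosome 4, 129548344 to 129573641), the kinase that starts receptor signalling, had 159 reads in the knockdown and 56 in the control library. Its log2 ratio was 1.41 (0.97 to 1.89). This interval lay below those of the 8 genes other than Pax9, of which Rag2 had the lowest lower bound, 2.17. The interval of Pax9 overlapped that of Lck and, at its upper end, that of Rag2. In bulk libraries, fewer cells of a type and less RNA per cell cannot be told apart, so none of these ratios counts cells.

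With the minimum of 50 reads, 8 of the 10 genes were called higher, and without a minimum all 10, where 20.7% of the genes with 50 reads and 15.1% of the 27674 genes tested without a minimum were called higher (and 12.3% and 8.57% lower). Nothing is read from these counts, because the genes were picked for being higher and several reached the minimum through the knockdown library alone. Having no control reads beside 50 or more in the knockdown library, as Pax1, Ptcra and Cd3g did, was seen in 45 of the 14569 genes, 0.309%. The reverse, no knockdown reads beside 50 or more in the control, was seen in 1 gene, 0.00686%.

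**Figure D2:**
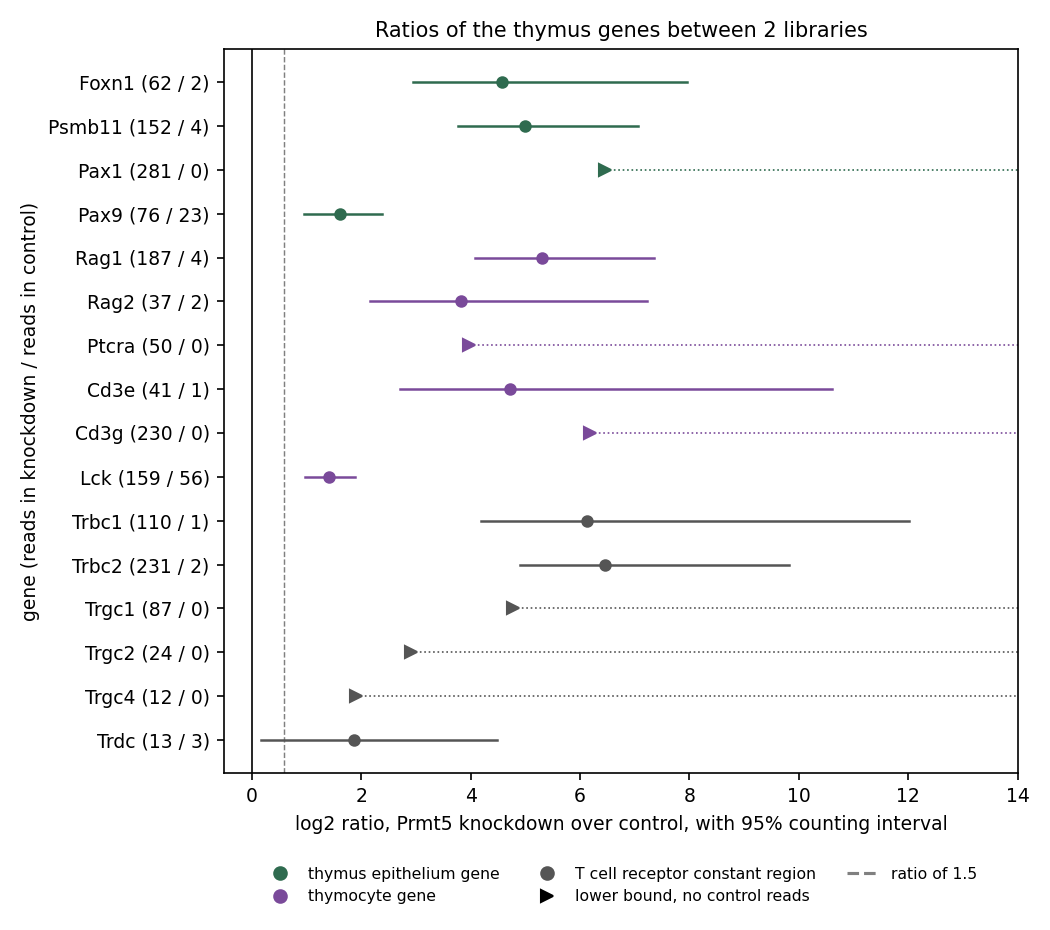
Log2 ratio of Prmt5 knockdown over control (x axis) for the 10 genes and the T cell receptor constant regions, with 95% counting intervals and the reads of both libraries beside each name. Triangles with dotted lines are lower bounds of genes with 0 control reads, set against 3 reads. Pax9 and Lck lie between 1 and 2, and the other 8 genes lie at or above 3.83.

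Pax9 and Lck held most of the control reads of their groups. The 4 epithelial genes together had 571 reads in the knockdown and 29 in the control library, an 18.3-fold difference (log2 ratio 4.19, 3.68 to 4.81). Without Pax9 they had 495 and 6 reads, 72.1-fold (log2 ratio 6.17, 5.15 to 7.74). The 6 thymocyte genes had 704 and 63 reads, 10.5-fold (log2 ratio 3.39, 3.02 to 3.79), and without Lck 545 and 7 reads, 68.7-fold (log2 ratio 6.10, 5.15 to 7.52). Leaving out these genes was chosen after their values were seen. Epithelial and thymocyte sums without them had intervals that overlap almost wholly.

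The make-up of the reads differed accordingly. All 10 genes held 1275 reads in the knockdown library, 0.00494% of its reads, and 92 in the control library, 0.000407%. Lck and Pax9 took 18.4% of the 1275 knockdown reads (exact 95% binomial interval 16.3% to 20.7%) and 85.9% of the 92 control reads (77% to 92.3%). The other 8 genes took 1040 knockdown reads and 13 control reads. These 13 came from Psmb11 and Rag1 with 4 each, Foxn1 and Rag2 with 2 each and Cd3e with 1.

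**Figure D3:**
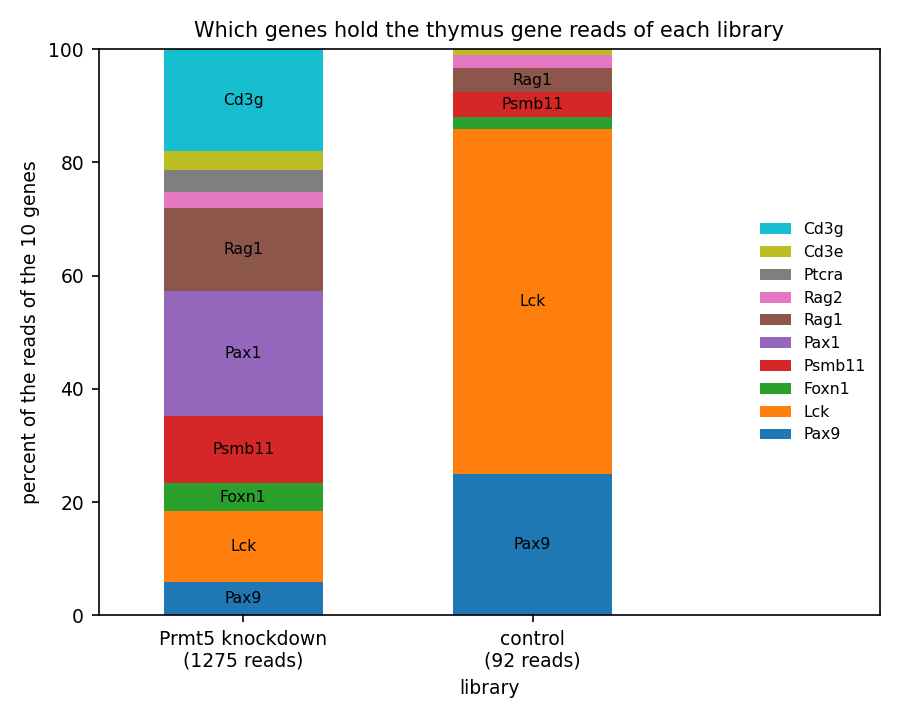
Share of the reads of the 10 genes (percent, y axis) that each gene held in the Prmt5 knockdown library (left bar, 1275 reads) and the control library (right bar, 92 reads). Lck and Pax9 fill 85.9% of the control bar and 18.4% of the knockdown bar, where Pax1, Cd3g and Rag1 are the widest segments.

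Levels between genes were compared per length with the deposited FPKM. In the knockdown library Cd3g stood highest at 8.70 FPKM, followed by Pax1 at 3.71 and Lck at 1.67. Ptcra (1.51), Psmb11 (1.39), Rag1 (1.09), Cd3e (1.08), Pax9 (0.750), Foxn1 (0.713) and Rag2 (0.413) followed in that order. Cd3g and Pax1 stood apart from the next gene, while each neighbouring pair from Lck down to Rag2 had overlapping Poisson intervals. In the control library Lck was highest at 0.674 FPKM and Pax9 next at 0.260, and no other of the 10 genes passed 0.0417.

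The gene lengths behind the FPKM matter for the CD3 genes. The authors' length, which the ratio of count to FPKM gives, was 1023 bp for Cd3g against 3269 bp of joined GENCODE exons, and 1476 against 4080 bp for Cd3e. With GENCODE lengths, Cd3g stood at 2.72 FPKM in the knockdown library, near Pax1 at 2.42 and Lck at 2.10, and Cd3e moved to the last place at 0.389. The first 6 places kept their order. The ratios between libraries do not depend on length.

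T cell receptor genes, listed after their values had been seen, were read in the knockdown library as well. Constant regions close the receptor chains, and Trbc2 had 231 reads in the knockdown and 2 in the control library (log2 ratio 6.46, 4.90 to 9.82) and Trbc1 110 and 1. These beta constant regions are near copies, so the split between them is uncertain, and together they had 341 and 3 reads. Among the gamma constant regions Trgc1 had 87 and 0 reads, at least 27.4-fold higher on the floor of 3 reads, with an interval from 21.8-fold. Trgc2 had 24 and 0, Trgc4 12 and 0, and Trgc3 none in either. The delta constant region Trdc had 13 and 3 reads. The alpha constant region Trac, which thymocytes use after the pre-T alpha stage, had 2 and 0 reads.

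Reads also fell on the segments that recombination joins. Of 270 receptor entries, 42 had reads in the knockdown and 13 in the control library, with 552 and 18 receptor reads in all. Among all 41709 genes, 25522 had reads in the knockdown and 24983 in the control library. Constant regions held 479 of the knockdown reads, joining segments 41 and variable segments 30. Of the 14 beta joining segments 10 had reads in the knockdown library and 3 in the control library, with 31 and 3 reads. Of the 60 alpha joining segments 1 had a read in the knockdown library and none in the control library.

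Other genes of thymus epithelium went both ways. Of 22 listed genes 18 had 50 reads, of which 8 were called higher, 5 lower and 5 neither. Of all genes with 50 reads, 20.7% were called higher and 12.3% lower. The median log2 ratio of the list was 0.12, beside -0.01 for all genes. Prss16, a serine protease of cortical thymus epithelium, had 646 reads in the knockdown and 43 in the control library (log2 ratio 3.81, 3.38 to 4.31). Il7, the cytokine that early thymocytes need, had 99 and 3 (4.75, 3.37 to 7.26). The chemokine scavenger Ackr4 had 125 and 6 (4.19). Ccl25, a chemokine that draws progenitors into the thymus, had 266 and 78 reads (1.68), which is a smaller ratio than that of Foxn1 or Psmb11.

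The 5 genes called lower were Cd40 (log2 ratio -1.13), Scx (-0.99), Enpep (-0.88), Tnfrsf11a (-0.62) and Ltbr (-0.59). All 5 had at least 132 control reads, Ltbr 2913, in a library where Foxn1 had 2 and Psmb11 4. Dll4, the Notch ligand of thymus epithelium and of blood vessels, had 399 reads in the knockdown and 453 in the control library and was not called. Aire, which marks mature medullary epithelium, stood at 15 and 19 reads, and Ccl19 at 0 in both.

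Regulators of the third pharyngeal pouch did not move together. Of the 6 with 50 reads 1 was called higher, 3 lower and 2 neither (median log2 ratio -0.52). Among all genes with 50 reads the shares were 20.7% higher and 12.3% lower. Hoxa3, needed for the mouse thymus, had 680 reads in the knockdown and 1262 in the control library and was called lower (log2 ratio -0.98), as was Ripply3 (-0.98). Eya1 was not called (0.04), and Tbx1 had 5 and 18 reads.

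Among 37 other early thymocyte genes, 19 had 50 reads, of which 7 were called higher, 3 lower and 9 neither (median log2 ratio 0.25). The shares over all genes with 50 reads were 20.7% higher and 12.3% lower. Without the minimum, 15 were called higher, beside 15.1% of all genes tested that way. The genes without control reads among the called ones were receptor parts. Il2ra, the interleukin 2 receptor chain that marks thymocytes before beta selection, had 96 reads in the knockdown and 0 in the control library, at least 30.2-fold higher on the floor of 3 reads, with an interval from 24.1-fold. Cd3d, the CD3 gene beside Cd3g, had 70 and 0, at least 22.0-fold higher on that floor, with an interval from 17.4-fold. The interleukin 7 receptor Il7r had 41 and 2 reads, below the minimum.

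The other genes called higher had control reads. Lat, an adaptor below LCK, had 169 reads in the knockdown and 41 in the control library (log2 ratio 1.95), Rhoh 79 and 13 (2.48) and Thy1 322 and 68 (2.15). The RNA regulator Arpp21 had 254 and 16 (3.86). The kinase Zap70 had 20 and 17 reads, too few for a call, and Cd247 40 and 9. Lat and Thy1, like Lck, had more control reads than the CD3 genes.

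Transcription factors of the T lineage split. Ikzf1, a zinc finger factor of all lymphoid cells, had 1169 reads in the knockdown and 130 in the control library (log2 ratio 3.08, 2.82 to 3.36). Tcf7 (767 and 2773 reads, -1.94), Lef1 (371 and 1183 reads, -1.76) and Bcl11b (180 and 277 reads, -0.70) were called lower. Gata3 (107 and 73 reads, 0.46) and Notch1 (2647 and 3514 reads, -0.49) were not called. Tcf7 and Lef1 also carry Wnt signals outside the blood, and their control reads were many times those of any member of the CD3 complex. Which cells the Tcf7 and Lef1 reads came from was not tested.

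Genes of Notch signalling and T commitment gave a median log2 ratio of -0.16, with 2 of 10 called higher and 3 lower, beside 20.7% and 12.3% of all genes with 50 reads. Myb, a factor of blood progenitors, had 366 reads in the knockdown and 97 in the control library (log2 ratio 1.83), and Egr1 was higher as well (0.98). Notch3 (-1.25), Tcf3 (-0.84) and Tcf12 (-0.66) were lower. Hes1, the Notch target of early thymocytes and many other cells, had 789 and 1035 reads and was not called.

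Genes of later T cell stages had few reads. Themis, which acts in positive selection, had 33 reads in the knockdown and 3 in the control library (log2 ratio 3.18, 1.70 to 5.72), Ccr7 19 and 4 (2.04, 0.57 to 4.18) and Cd5 13 and 1 (3.10, 0.88 to 9.03), all under the minimum but with intervals above 0. The coreceptor gene Cd8a had 0 reads in both libraries, Cd8b1 0 in the knockdown and 2 in the control library, and Cd4, which is also made by other blood cells, 8 and 9. Dntt, the enzyme that adds bases at receptor joints, had 4 and 0 reads. For Cd8a, Cd8b1, Cd4 and Dntt a difference between the libraries was not detectable at this depth.

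**Figure D4:**
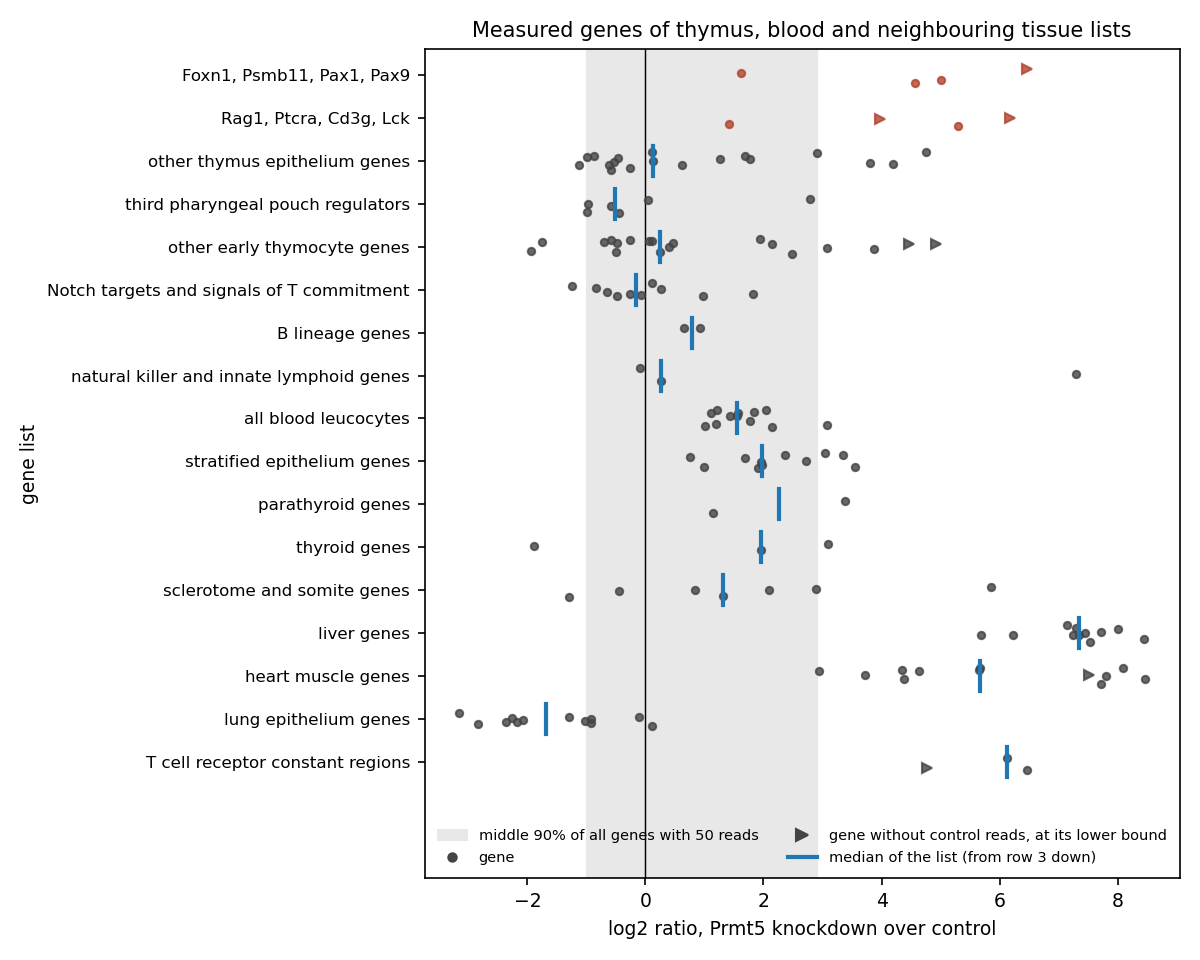
Log2 ratio of Prmt5 knockdown over control (x axis) for every gene with 50 reads in a library, by list, with the list median as a blue bar from the third row down and genes without control reads as triangles at their lower bound. Grey spans the middle 90% of all genes, -0.99 to 2.90. Of the 10 genes, the 8 with 50 reads are drawn (red, upper rows), and all of these but Pax9 and Lck lie right of the grey. The other thymus lists spread on both sides of 0, and liver and heart genes lie far to the right.

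Genes of other blood lineages were set beside the thymocyte values. The 12 general leucocyte genes, none of them at 0, summed to 7058 reads in the knockdown and 2534 in the control library. Each was called higher, beside 20.7% of all genes with 50 reads, and their median log2 ratio was 1.56. Laptm5 (3.08) and Rac2 (2.05) led them. Rag1, Ptcra, Cd3g and Il2ra had larger ratios or bounds than every one of these 12, whereas Lck (1.41) lay within their range of 1.01 to 3.08. Nothing is read from the larger values. Rag1, Ptcra and Cd3g were picked for being higher, and like Il2ra they reached 50 reads through the knockdown library alone. The median of the other early thymocyte genes (0.25) lay below that range, and Lat (1.95), Thy1 (2.15) and Rhoh (2.48) lay within it. What part the leucocyte genes have in the thymocyte values was not tested.

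B lineage genes, which share Rag1 and Rag2 with thymocytes, were sparse. Of 12 genes 2 had 50 reads, and both were called higher, beside 20.7% of all genes with 50 reads. They were Ebf1 (278 reads in the knockdown and 167 in the control library, log2 ratio 0.65) and Cd79b (57 and 28 reads, 0.93). The precursor B genes Vpreb1 and Igll1 had 16 and 2 reads each. The list summed to 449 and 248 reads, with Vpreb2 and Ms4a1 at 0 in both. Their part in the Rag1 and Rag2 reads was not tested.

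Of 12 natural killer and innate lymphoid genes 3 had 50 reads and 1 was called, as higher. Among all genes with 50 reads, 20.7% were called higher and 12.3% lower. Gzma, a granule protease of killer cells and of some fetal thymocytes in the mouse, had 412 reads in the knockdown and 2 in the control library (log2 ratio 7.29, 5.74 to 10.65). The markers Ncr1 (2 and 0 reads), Klrb1c (3 and 0) and Eomes (1 and 2) were near 0. Gzmb (21 and 3 reads, log2 ratio 2.54, 0.98 to 5.11) and Klrd1 (6 and 0 reads) were under the minimum but had intervals above 0. Il2rb (16 and 6), Cxcr6 (8 and 3), Il18r1 (14 and 14) and Tbx21 (3 and 4) had intervals that include 0. The list summed to 2788 and 2328 reads, most of them from Id2 (2246 and 2250).

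Genes of tissues that share epithelial members with the thymus were counted too. Of 12 stratified epithelium genes 11 had 50 reads and all 11 were called higher (median log2 ratio 1.97), beside 20.7% of all genes with 50 reads. The list summed to 6312 reads in the knockdown and 1280 in the control library. Krt5 (3.54), Krt14 (3.35), Perp (3.03) and Krt13 (2.73) had the largest ratios. Thymus medulla, oesophagus and skin are only some of the tissues that make Krt5 and Krt14. Which cells these keratin reads came from, within the lung or outside it, was not tested. Of 10 sclerotome and somite genes 7 had 50 reads, with 5 called higher and 1 lower (median 1.31), beside 20.7% and 12.3% of all genes. Nkx3-2, made in sclerotome like Pax1 and Pax9 and also in stomach and spleen mesenchyme, had 91 and 1 reads (log2 ratio 5.86, 3.91 to 11.74). Tbx18 had 706 and 89 (2.90), Foxd1 110 and 24 (2.09), Sox9 was lower (-1.30), and Uncx, which marks one side of each somite, had 1 and 0 reads. The list summed to 4329 and 4397 reads. Whether these tissues were present, and whether the Pax1 and Pax9 reads came from any of them, was not tested.

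Genes of liver and heart were higher in the same library. For the counts that follow, the shares over all genes with 50 reads were 20.7% higher and 12.3% lower. All 11 liver genes were called higher (median log2 ratio 7.35), taking 1.17% of knockdown reads and 0.00947% of control reads, among them Fgb (8.45) and Alb (7.72). All 12 heart muscle genes were called higher (median 5.66), taking 0.662% and 0.0234%, among them Myh7 (8.47) and Myl2 (7.80), and Nppb had no control reads. The intervals of Foxn1 (2.96 to 7.95), Psmb11 (3.78 to 7.06) and Rag1 (4.08 to 7.35) include the heart median, so their places beside it are undecided. The bound of Ptcra (3.97) leaves its place undecided as well. The ratios of Pax9 and Lck lay below those of every liver and heart gene. Pax1 and Cd3g lay above the heart median even at their lower bounds (log2 6.47 and 6.18). Nothing is read from these places, because the genes were picked for being higher. Of 12 lung epithelium genes 10 were called lower and none higher (median -1.69), taking 0.0552% and 0.187%. The part of other tissue in the thymus values was not tested.

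The genes next to the 10 thymus genes were also counted. The nearest protein-coding genes with 50 reads on either side numbered 16, the CD3 genes and the RAG genes not being counted as their own neighbours, and 2 of these were called higher, 4 lower and 10 neither, beside 20.7% higher and 12.3% lower among all genes with 50 reads. Their median log2 ratio was -0.14. Traf6 (551 and 748 reads) and Iftap (554 and 451 reads) flank the RAG pair, Psmb5 (1855 and 1572 reads) is a neighbour of Psmb11, and Ube4a (1623 and 1708 reads) of Cd3g. The neighbours called higher were Fam167b beside Lck (91 and 10 reads) and Slc25a21 beside Pax9 (261 and 2 reads).

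Some reads cannot be placed for certain, because the strand setting is not given in the sources used here. Exons of Slc25a21 overlap those of Pax9 by 189 bp on the other strand, in GENCODE, and those of Iftap overlap Rag2 by 208 bp on the other strand and Rag1 by 80 bp on the same strand. AI646519 and Gm48719 overlap Pax1 by 183 bp and Cd3e by 135 bp on the other strand, and AI646519 had 2 and 0 reads. Foxn1, Psmb11, Ptcra and Cd3g share no exon base with another gene, and all 4 were called higher.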

How the data were processed

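Polyadenylated RNA was sequenced in 2 libraries, with mm10 as the build and HTSeq 0.6.1, TopHat2 2.0.12 and Bowtie2 2.2.3 as tools, per the submitters' processing notes. The sources used here do not give the annotation, the strand setting or what became of multiply mapped reads. The authors deposited raw read counts and FPKM for 41709 genes. The deposited FPKM equal count over length and library total, since both libraries gave the same length within 0.001 bp for all 22831 genes with reads in both. Symbols came from RefSeq GRCm38.p6 and exons from GENCODE.

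Library sizes were scaled with edgeR 4.0.16 (TMM) in R 4.3.3, ratios used a prior count of 0.5, and intervals were exact Clopper-Pearson intervals (SciPy 1.17.1). Whether the pools came from separate litters is not given. PCR copies make reads less than independent, so intervals and floors may be too narrow. Scripts were tested on simulated data.

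The members and lists were chosen with earlier results of these data known. Named were all 10 genes, up to 4 called genes of each other list by the interval bound nearest a ratio of 1 (2 for leucocytes, liver, heart and lung), called genes against their list median, and, in lists without a call, the most abundant. Other genes named were chosen after their values were seen, and some genes under the rule are not reported here. Alternatives covered scaling (DESeq2 1.42.0 among them), prior count, FPKM with pseudocounts, read minimum, ratio and interval.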

Additional observations from a re-analysis of the deposited data

How the results depend on the processing

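No paired analysis was possible because each group has 1 library, and no replicate could be left out. Over 12 alternative settings, and 4 more chosen after seeing the data, none of the recomputed values changed sign. The scaling alternatives, both other prior counts, a ratio of 2 and a 99% interval left every count within 1.5 times and every ratio within its interval. On the log2(FPKM + pseudocount) scale with 0.1, the median log2 ratio of the members with 50 reads was 3.31, against 5.15 from counts, and the summed thymocyte ratio was 4.09, against 3.39. With 1 the median was 1.11 and the summed epithelial ratio 2.51, against 4.19. A pseudocount pulls the ratios of single low genes toward 0. A sum of FPKM divides the reads of each gene by its length, which a sum of reads does not. With a minimum of 200 reads, 2 members (Pax1 and Cd3g), 5 other epithelium genes and 3 other thymocyte genes were called higher and the members' median was 8.95, because fewer genes were tested. A minimum of 10 reads or none called 15 other thymocyte genes higher. Dropping members whose exons overlap another gene left 4 called of 4. The summed log2 ratio was 6.17 without Pax9 and 6.10 without Lck. Single members ranged over the alternatives from 0.46 to 4.05 (Rag2) and 0.47 to 1.65 (Pax9) up to 2.23 to 11.09 (Pax1). For genes with 0 control reads the fitted ratio depends on the prior count. Depth limits Rag2, Cd3e, Il7r and the delta receptor, whose reads were few.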

Other observations

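Markers of glands that arise beside the thymus were sparse in both libraries. Parathyroid tissue shares the third pouch, and its hormone gene Pth had 30 reads in the knockdown and 1 in the control library (log2 ratio 4.28, 2.23 to 10.17), under the minimum of 50. Its regulator Gcm2 had 2 and 0 reads and the calcium sensor Casr 6 and 7. Chga, which nerve and other gland cells also make, had 247 and 22 reads (log2 ratio 3.38) and was called higher.

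Of 8 thyroid genes 3 had 50 reads, with 2 called higher and 1 lower, beside 20.7% and 12.3% of all genes with 50 reads. Iyd (85 reads in the knockdown and 9 in the control library, log2 ratio 3.09), which liver also makes, and Tg (55 and 13 reads, 1.96), the thyroid hormone precursor, were called higher, and Hhex was lower (20 and 71 reads, -1.89). Pax8 had 1 read in each library. Liver genes were higher in the same library, and their part in Iyd was not tested.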
